A study of Mus musculus with 4 samples.

Results

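Chemokine receptor genes that guide blood cells into, through and out of the bone marrow were examined, 6 in all: Cxcr4, Cxcr2, Ccr1, Ccr2, Ccr9 and Cx3cr1. They were taken by gene symbol, and each of the 6 symbols matched 1 row of the 32285 genes in the count matrices. The cells were CD45.2+Kit+ bone marrow of mice, taken 10 weeks after transplantation, so the cells of all groups shared that gate and a transplantation. There were 4 libraries, with 1 in each group: a control library and libraries in which Mll3 (Kmt2c), Mll4 (Kmt2d) or both were deleted, 2 genes that encode histone H3 lysine 4 methyltransferases. The series asks what each gene does for stem cell, myeloid and B-cell identity. The means and time of deletion, the age and number of the animals in a library and what the 2 antibody hashtags in each library marked were not given in the sources used here.

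Chemokine receptors are G protein-coupled receptors, and cells move towards the source of the ligand. CXCR4 binds CXCL12 made by marrow stroma and is known for keeping stem cells, neutrophils and B-cell precursors in the marrow. CXCR2, which binds CXCL1 and CXCL2, draws mature neutrophils out of the marrow, CCR2, which binds CCL2, does so for monocytes, and CCR1 binds CCL3 and CCL5 in myeloid cells. CCR9 binds CCL25 and is known from cells bound for the thymus and gut, and CX3CR1, the fractalkine receptor, marks monocytes and their progeny.

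Cxcr4 lies on chromosome 1 at 128588199 to 128592293 on the minus strand (GRCm38, GENCODE M21) and codes for 359 residues in 2 exons. Cxcr2 lies on the same chromosome at 74153989 to 74161246 on the plus strand and also codes for 359 residues. The other 4 are on chromosome 9. Ccr9 (123678439 to 123784330, plus strand), Ccr1 (123962124 to 123968692, minus strand) and Ccr2 (124101950 to 124113557, plus strand) lie within 435119 bases of each other, and Cx3cr1 lies at 119901616 to 120069879 on the minus strand. No annotated gene overlaps Cxcr4, Cxcr2, Ccr1 or Ccr2. The annotated Cx3cr1 span overlaps 9 other genes and that of Ccr9 overlaps 6, on both strands, so counts of these 2 genes are the less certain ones.

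The stretch just before the start of Cxcr4 differs in base composition from those of the other 5. Among the 250 bases before each RefSeq start (GRCm38.p6, all 6 genes matched), that of Cxcr4 held 19 CG dinucleotides and 61.2% G or C. The others held 1 to 4 CG dinucleotides, against a median of 6 over 32851 promoter windows of this length. The windows of Cxcr4 (chr1:128592300-128592549, minus strand) and of Ccr1 (chr9:123968693-123968942, minus strand) are shown as the 2 ends of this range, 5′ to 3′ on the gene's strand and with every CG in capitals.
Cxcr4: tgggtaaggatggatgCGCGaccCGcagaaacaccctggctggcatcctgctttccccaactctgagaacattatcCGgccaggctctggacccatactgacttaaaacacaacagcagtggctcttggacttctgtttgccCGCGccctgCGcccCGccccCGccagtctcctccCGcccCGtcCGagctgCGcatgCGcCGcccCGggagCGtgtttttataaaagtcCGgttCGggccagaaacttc
Ccr1: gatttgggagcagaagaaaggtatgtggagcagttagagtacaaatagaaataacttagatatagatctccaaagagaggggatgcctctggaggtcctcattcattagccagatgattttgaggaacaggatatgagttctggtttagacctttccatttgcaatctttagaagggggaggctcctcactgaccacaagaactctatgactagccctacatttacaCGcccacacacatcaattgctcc
The 9 motifs searched on both strands were the ETS core GAGGAA, the RUNX core TGTGGT, the GATA core AGATAA, the C/EBP pattern TTNNGNAA, AP-1 TGANTCA, the E-box CACGTG, the TATA box TATAAA, the CCAAT box CCAAT and the palindromic NRF1 motif. The Cxcr4 window held the NRF1 motif, present in 0.782% of all windows, 59 bases before the start, the TATA box letters, present in 12.4%, 30 bases before it, and the C/EBP pattern (36.8% of windows). The Ccr1 window held the ETS core (23.3% of windows), which overlapped its C/EBP match, and the RUNX core (14% of windows), and the Cxcr2 window the ETS core. These are matches of letters and no measure of binding.

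The libraries held 5350 to 7146 cells after filtering, with a median of 15754 unique molecules (UMIs) per cell in the control library, 16963.5 in the Mll3-labelled, 5142 in the Mll4-labelled and 9965 in the Mll3/4-labelled library. Levels are given as counts per 1000000 UMIs (CPM). Kmt2c was at 47.9 CPM in control, 27.2 in the Mll3-labelled, 59.2 in the Mll4-labelled and 34.8 in the Mll3/4-labelled library. Kmt2d was at 25.8, 21.6, 24.99 and 24.7 CPM, and the intervals of the Mll4-labelled and Mll3/4-labelled libraries overlapped that of control. Where the deleted parts of the genes lie was not given, so these 3′ counts cannot check the deletions. The libraries are named by their labels. The Mll4-labelled library also stood apart in Xist, which was at 0.519 CPM against 955 to 1839 CPM in the others. The Y-linked genes Eif2s3y and Ddx3y were among the 10 leading genes of the cell cluster that held 1922 of its cells. Sex and the Mll4 label thus cannot be told apart in the differences from control given below. With 1 library in a group no test between groups was possible, and the 95% intervals given below are exact intervals that cover counting error only.

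Cells were grouped into clusters without any chemokine receptor among the genes used, and the clusters were named by marker genes, with the ending -like. HSC/MPP-like cells (hematopoietic stem cells and multipotent progenitors, with Procr, Mecom and Hlf) numbered 1455, 1040 and 558 in the control, Mll3-labelled and Mll4-labelled libraries. No cluster was named lymphoid-primed progenitor-like here. With another clustering seed such a cluster held 1717 cells of all libraries, beside 968 HSC/MPP-like cells. It held 1308 cells with receptor genes allowed in clustering and 1208 at a higher resolution. The HSC/MPP-like class may thus include lymphoid-primed progenitors, and their part in its levels was not tested. Of the Mll3/4-labelled cells, 98.7% were B-cell progenitor-like (with Vpreb1, Ebf1 and Pax5), against 2.69% to 6.55% in the other libraries. That library therefore had 13 HSC/MPP-like cells and 14 neutrophil precursor-like cells, and its receptors could be set against control within 1 class only. The markers of that class did not all keep their level. Vpreb2 stood at 402 CPM in control and 0.883 in the Mll3/4-labelled cells of the class, Vpreb1 at 3465 and 2836. Pax5 (244 and 368 CPM) and Il7r (264 and 703) were higher. No integration across libraries was made, and 3 clusters with 1074 control, 780 Mll3-labelled, 302 Mll4-labelled and 6 Mll3/4-labelled cells stayed unnamed.

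The receptors' whole-library levels came first. Over all cells of a library, Cxcr4 stood at 34.6 CPM in control, 16.8 in the Mll3-labelled, 63.0 in the Mll4-labelled and 25.8 in the Mll3/4-labelled library. Ccr2 stood at 7.78, 5.43, 60.3 and 1.03 CPM in the same order, and Ccr1 at 7.53, 2.94, 42.1 and 0.554 CPM. Cxcr2 stood at 9.13, 4.71, 23.7 and 1.04 CPM, and Cx3cr1 at 2.94, 2.69, 9.09 and 0.219 CPM. All 6 receptors, Ccr9 included (0.404, 0.331, 0.702 and 0.180 CPM), were highest in the Mll4-labelled library, and the 5 other than Cxcr4 were lowest in the Mll3/4-labelled library. Against control, 2 of 6 were at least 2-fold lower in the Mll3-labelled library, where 3.4% of genes with 20 counts in either library were. For the Mll4-labelled library 4 of 6 were at least 2-fold higher (9.67% of genes), and for the Mll3/4-labelled library 5 of 6 were at least 2-fold lower (19.5% of genes). Of these calls, Mll3-labelled Cxcr4 (log2 -1.04) was under 2-fold with the mean over cells (-0.90) and after thinning to 2000 UMIs (-0.81), and so was Mll4-labelled Cxcr2 (1.38) after thinning (0.85). Whole-library levels of such genes move with the mix of cells: neutrophil precursor-like cells made up 18.0% of the control library, 36.6% of the Mll4-labelled and 0.202% of the Mll3/4-labelled library. Fewer cells of a type and less RNA per cell cannot be told apart in such sums, and the levels within classes, which do not move with class shares, are given next.

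Within the 8 named classes with at least 50 cells in both libraries, 6 pairs of a class and a receptor were at least 2-fold lower than control for the Mll3-labelled library and 0 higher. Ccr1 was the receptor in HSC/MPP-like cells (1.96% of genes lower there), Ccr1 and Ccr2 in granulocyte progenitor-like (1.85%), Cxcr2 in monocyte/macrophage progenitor-like (1.42%), Cxcr4 in erythroid progenitor-like (2.51%) and Cx3cr1 in megakaryocyte-like cells (2.26%). The Cx3cr1 pair rests mainly on 1 of 2 control hashtags. For the Mll4-labelled library 15 pairs were higher and 1 lower. Ccr1 and Ccr2 were higher in HSC/MPP-like (5.59% of genes higher), granulocyte progenitor-like (7.62%) and neutrophil precursor-like cells (4.72%), with Cxcr2 added in monocyte/macrophage progenitor-like cells (8.22%). Cxcr2, Ccr2 and Cx3cr1 were higher in erythroid progenitor-like cells (7.64%), though Cx3cr1 there in 1 of 2 hashtags, Ccr1, Ccr2 and Cx3cr1 in basophil/mast-like cells (11.5%), and Ccr9 was lower in HSC/MPP-like cells (4.79% of genes lower). For the Mll3/4-labelled library Cxcr4 and Ccr2 were lower in B-cell progenitor-like cells, where 12.7% of genes were. Several of these pairs rest on few counts: after every cell was thinned to 2000 UMIs, 1 Mll3-labelled pair was lower and 7 Mll4-labelled pairs were higher, and with a minimum of 100 counts 2 and 6.

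**Figure D1:**
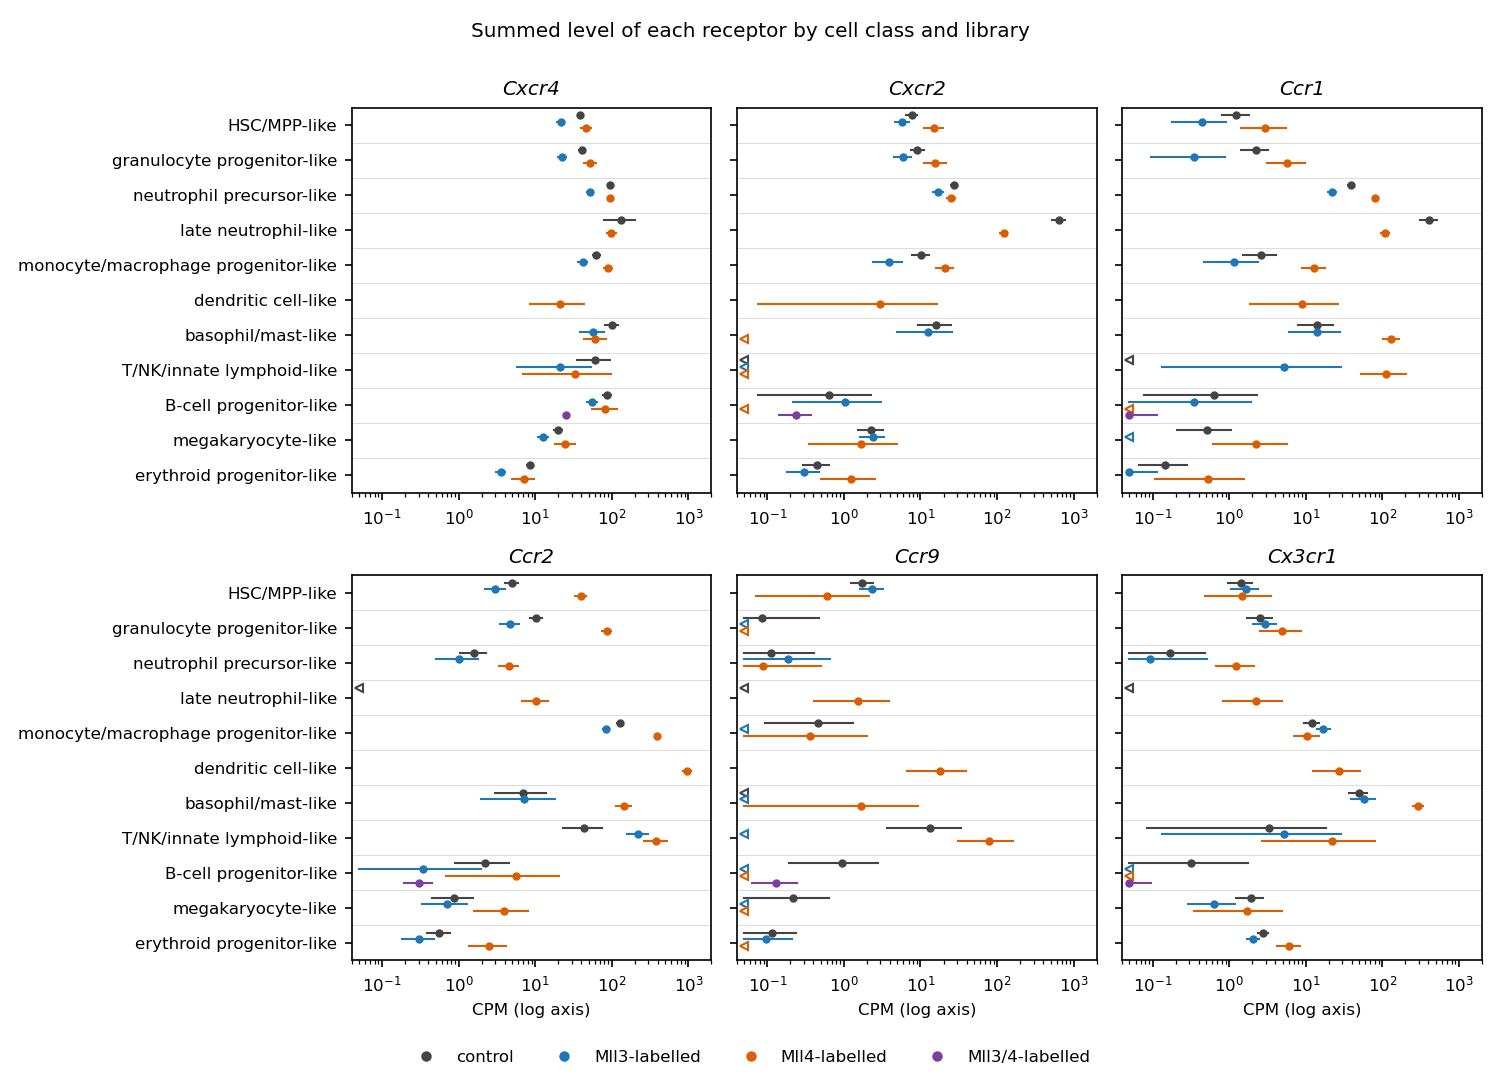
Levels of the 6 receptors in CPM (log axis) by cell class, with 1 point per library and exact Poisson 95% intervals, for classes with at least 25 cells in that library. Open triangles at the left edge mark 0 counts, and values under 0.05 CPM are drawn at 0.05. Cxcr4 spans every class. Ccr2 is led by dendritic cell-like, monocyte/macrophage progenitor-like and T/NK/innate lymphoid-like cells, and Cxcr2 by late neutrophil-like cells.

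Cxcr4 was the broadest of the 6. Among control classes with over 50 cells it was highest in basophil/mast-like (99.1 CPM, 81.7 to 119), neutrophil precursor-like (94.5, 90.0 to 99.1) and B-cell progenitor-like cells (85.7, 75.9 to 96.6), 3 neighbours whose intervals overlap. Monocyte/macrophage progenitor-like cells followed at 62.8 CPM (56.9 to 69.1), granulocyte progenitor-like cells at 41.0 (37.4 to 44.9) and HSC/MPP-like cells at 38.3 (35.8 to 41.0). The last 2 overlap, and megakaryocyte-like (19.9, 17.6 to 22.4) and erythroid progenitor-like cells (8.60, 7.88 to 9.37) lay below. Smaller control classes had 181 CPM (22 mature B cell-like cells), 130 (29 late neutrophil-like cells) and 59.9 (50 T/NK/innate lymphoid-like cells), with wide intervals. The basophil/mast-like value differed between the control hashtags, at 68.2 and 119 CPM, so its place in this order is uncertain. Within the HSC/MPP-like cells, cluster 13, which was led by Ptn, Slc16a11 and the histone gene Hist1h2ap, had more Cxcr4 than cluster 3, which was led by Ly6a, Procr and Hlf. The Cxcr4 levels were 44.2 and 35.8 CPM in control, 26.7 and 18.4 in the Mll3-labelled and 56.5 and 39.1 in the Mll4-labelled library, the same order in 3 of 3 libraries.

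In the Mll3-labelled library Cxcr4 was lower than in control in every class with enough counts. HSC/MPP-like cells went from 38.3 CPM in control to 21.4 (19.2 to 23.8), a log2 ratio of -0.84 (-1.02 to -0.65). Neutrophil precursor-like cells stood at 94.5 in control and 52.2 (48.0 to 56.7), a log2 ratio of -0.85, and granulocyte progenitor-like cells at 41.0 and 22.4, a log2 ratio of -0.87. Erythroid progenitor-like cells had the lowest ratio, from 8.60 to 3.57 CPM, log2 -1.27 (-1.4998 to -1.04), and monocyte/macrophage progenitor-like cells the one nearest to 0, from 62.8 to 41.5 CPM, log2 -0.60 (-0.83 to -0.37). B-cell progenitor-like cells (85.7 and 55.5 CPM, log2 -0.63), megakaryocyte-like cells (19.9 and 12.7, log2 -0.65) and basophil/mast-like cells (99.1 and 56.8, log2 -0.80, -1.42 to -0.23) lay between. Cxcr4 was thus lower in 8 of 8 classes, with a median log2 ratio of -0.82, and no interval reached 0. The erythroid progenitor-like class was the 1 past 2-fold.

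Few genes moved this way. The bar was a log2 ratio of -0.60, the Cxcr4 ratio nearest to 0, so it was set by Cxcr4 itself. Of 3773 genes with at least 20 counts in all 8 classes of both libraries, 5 others (0.133%) were at it or lower in each of the 8. They were Rps27rt, Gm2a, Wdr89, Rnaset2b and H2-T23, named after their values were seen. Rps27rt is a retrotransposed copy of a ribosomal protein gene and H2-T23 a non-classical MHC class I gene. Median log2 ratios over all genes tested lay between -0.09 and -0.01 in these classes.

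The cells of each library carried 2 hashtags in similar numbers, and each hashtag gives a separate value within the library. In HSC/MPP-like cells Cxcr4 stood at 36.3 and 40.2 CPM in the control cells of the 2 hashtags and at 20.5 and 21.9 in the Mll3-labelled cells. In neutrophil precursor-like cells the 4 values were 91.0 and 98.6 in control and 50.1 and 57.8 in the Mll3-labelled library. Both Mll3-labelled values lay below both control values in 7 of 7 classes with at least 20 counts in each library and 50 cells of each hashtag. There the difference between libraries was thus wider than that between hashtags. The basophil/mast-like class, with 59 Mll3-labelled cells, had too few cells for this. Whether a hashtag is an animal is not given, so this is no replicate test.

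**Figure D2:**
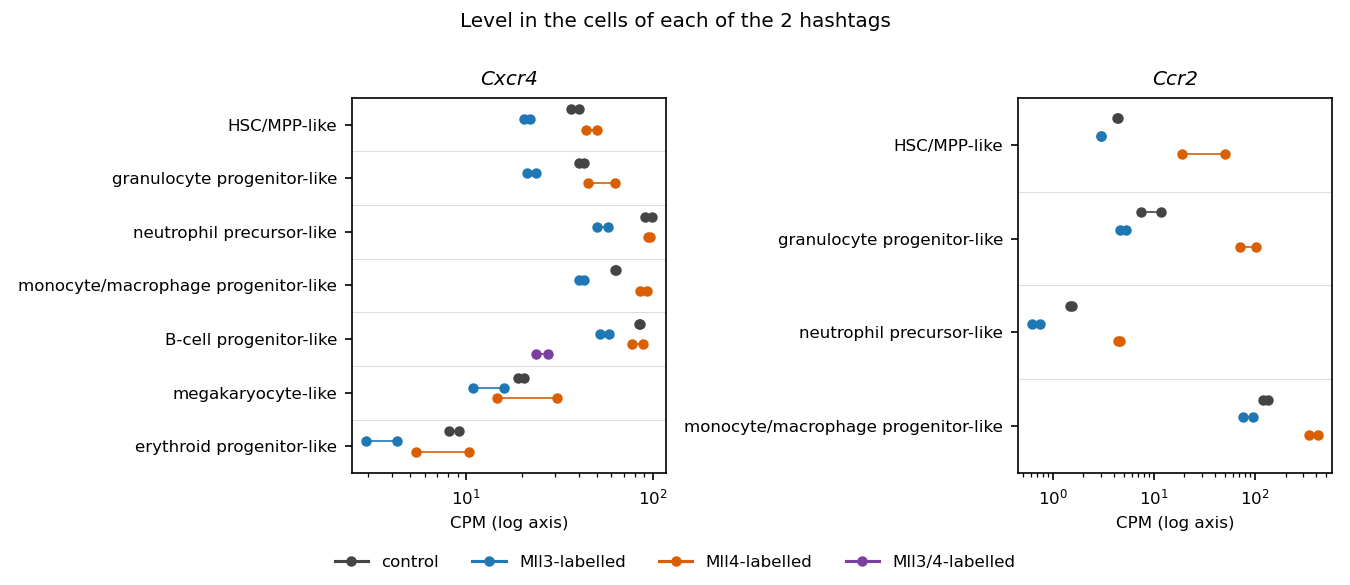
Cxcr4 and Ccr2 in CPM (log axis) by class, with the cells of the 2 hashtags of each library drawn as 2 joined points. For Cxcr4 the Mll3-labelled pairs lie below the control pairs in 7 of 7 classes, and for Ccr2 the Mll4-labelled pairs lie above the control pairs in 4 of 4.

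Immediate early genes, which respond to the handling of cells, also differed. The summed CPM of 12 of them (Fos, Jun and Egr1 among them, a list added after the data were seen) was 206 in the Mll3-labelled and 270 in the control library over all cells, a log2 ratio of -0.39, and -0.54 to 0.05 in the 8 classes. Their part in the Cxcr4 difference was not tested. After every cell was thinned to 2000 UMIs, 3.57% of Mll3-labelled and 6.26% of control HSC/MPP-like cells had a Cxcr4 UMI (unthinned 27.0% and 39.1%). In erythroid progenitor-like cells, the class with the least Cxcr4, the thinned shares were 1.03% and 1.95%. In B-cell progenitor-like cells the thinned shares were 13.1% and 13.7% and the thinned log2 ratio was 0.02, so there the lower level was not seen after thinning.

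Other genes of the homing and egress pathway in HSC/MPP-like cells were described by 4 lists. Of 14 adhesion and egress genes, 1 was at least 2-fold lower and none higher in the Mll3-labelled library (1.96% of all genes lower). That gene was S1pr1, the sphingosine-1-phosphate receptor that draws cells towards blood, at 6.34 CPM in control and 1.58 in the Mll3-labelled cells (log2 -2.01, -2.68 to -1.39). S1pr3 stood at 6.43 and 3.28 CPM (log2 -0.97). Of 22 tested signalling and desensitisation genes none was past 2-fold, and the lowest were Rgs1 (98.1 and 53.4 CPM, log2 -0.88) and Rgs2 (52.7 and 36.9, log2 -0.51), which shorten G protein signals. The ligand Ccl5 was higher (2.74 and 6.12 CPM, log2 1.16) and was the 1 of 7 tested ligands past 2-fold (1.10% of all genes were higher). The median log2 ratio was -0.15 over the adhesion list and -0.09 over the signalling list, against -0.03 over all genes.

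In the Mll4-labelled library Cxcr4 did not move one way. It stood at 89.8 CPM in monocyte/macrophage progenitor-like cells (62.8 in control, log2 0.52, 0.28 to 0.75), at 52.4 in granulocyte progenitor-like cells (41.0 in control, log2 0.35, or -0.07 when receptor genes were allowed in the clustering) and at 46.2 in HSC/MPP-like cells (38.3 in control, log2 0.27, 0.01 to 0.52). Neutrophil precursor-like cells had 95.02 CPM against 94.5 (log2 0.01, -0.10 to 0.12), and basophil/mast-like cells 61.2 against 99.1 (log2 -0.70, -1.27 to -0.15). The basophil/mast-like hashtags gave 53.5 and 67.2 CPM against 68.2 and 119 in control. The median log2 ratio of all genes tested within each of these classes was 0.08 to 0.24. In HSC/MPP-like cells it was 0.17, which lies within the interval of the Cxcr4 ratio there. With trimmed mean scaling, which moved the Mll4-labelled log2 ratios by -0.31 to -0.10 in these classes, the ratio was 0.05 in HSC/MPP-like, 0.25 in monocyte/macrophage progenitor-like and -0.09 in neutrophil precursor-like cells.

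**Figure D3:**
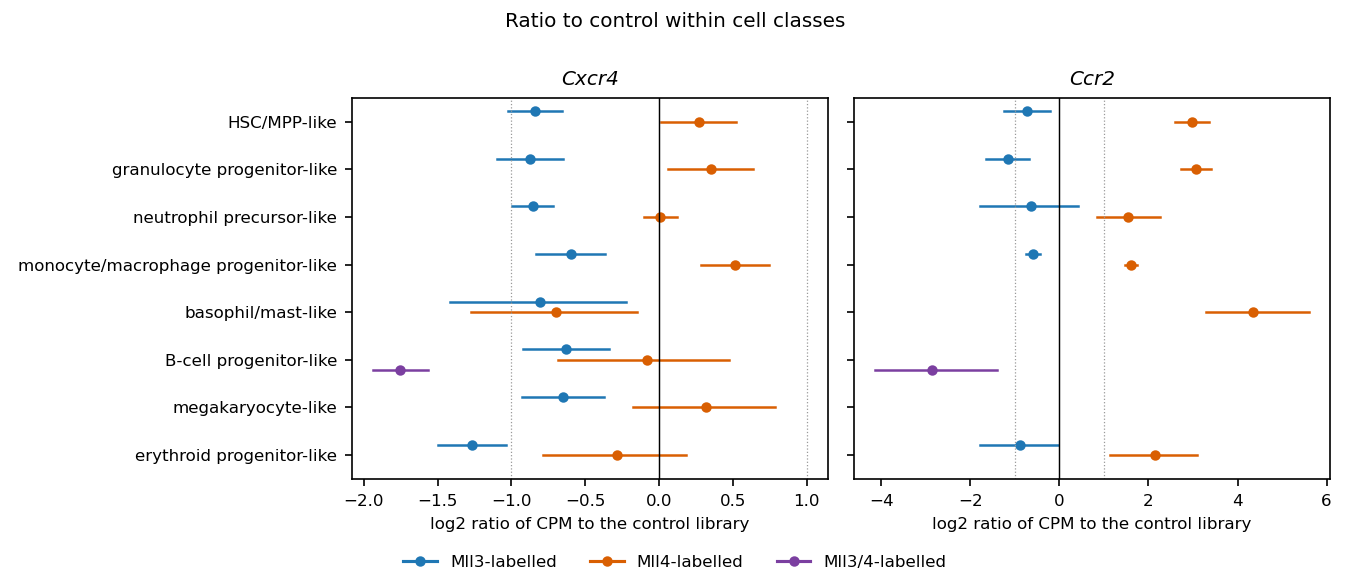
Log2 ratio of CPM to the control library for Cxcr4 and Ccr2 by class, with exact conditional 95% intervals, for classes with 50 cells in both libraries and 20 counts in either. Dotted lines mark 2-fold. Mll3-labelled Cxcr4 ratios lie between -1.27 and -0.60, and Mll4-labelled Ccr2 ratios between 1.53 and 4.34.

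In the Mll3/4-labelled library Cxcr4 could be compared in B-cell progenitor-like cells, where it was the lowest of all libraries. The class stood at 85.7 CPM in control, 55.5 in the Mll3-labelled, 81.1 (54.3 to 116) in the Mll4-labelled and 25.5 (24.3 to 26.6) in the Mll3/4-labelled library. Against control the log2 ratios were -0.63, -0.08 and -1.75 (-1.94 to -1.56), and the last is a 3.37-fold lower level. The cells of the hashtags gave 83.9 and 85.4 CPM in control and 23.6 and 27.4 in the Mll3/4-labelled library.

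Different clusters held this class in the libraries, and the 4 Mll3/4-labelled clusters were led by Prlr, Gria2 and Rnase12, with 0 of the class markers among their 10 leading genes and 12 of 13 detected. Control cells fell into cluster 0, with 404.8 CPM summed over 6 mitosis genes, and cluster 15, with 5288 CPM, and Cxcr4 stood at 82.7 and 87.9 CPM there. The Mll3/4-labelled cells fell into clusters 21 and 22, with 232.0 and 308.4 CPM of the mitosis genes and Cxcr4 at 19.6 and 14.2, and clusters 23 and 24, with 3543 and 5760 CPM and Cxcr4 at 32.4 and 44.6. Each of the 4 Mll3/4-labelled clusters thus lay below both control clusters, and Cxcr4 was higher in the 2 dividing ones than in the 2 others. Control cells of this class had a median of 4414.5 UMIs and Mll3/4-labelled cells 9936. Thinned to 2000 UMIs, 13.7% of control and 4.76% of Mll3/4-labelled cells had a Cxcr4 UMI (unthinned 40.2% and 21.2%). In the same cells the summed neutrophil precursor markers were at 742 CPM in control and 15.5 in the Mll3/4-labelled cells, and the immediate early genes at 804 and 529 CPM (log2 -0.60). Their part in the Cxcr4 difference was not tested. Ccr2 was the other receptor past 2-fold there, at 2.21 CPM (7 counts) in control and 0.303 (23 counts), log2 -2.86 (-4.13 to -1.40).

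**Figure D4:**
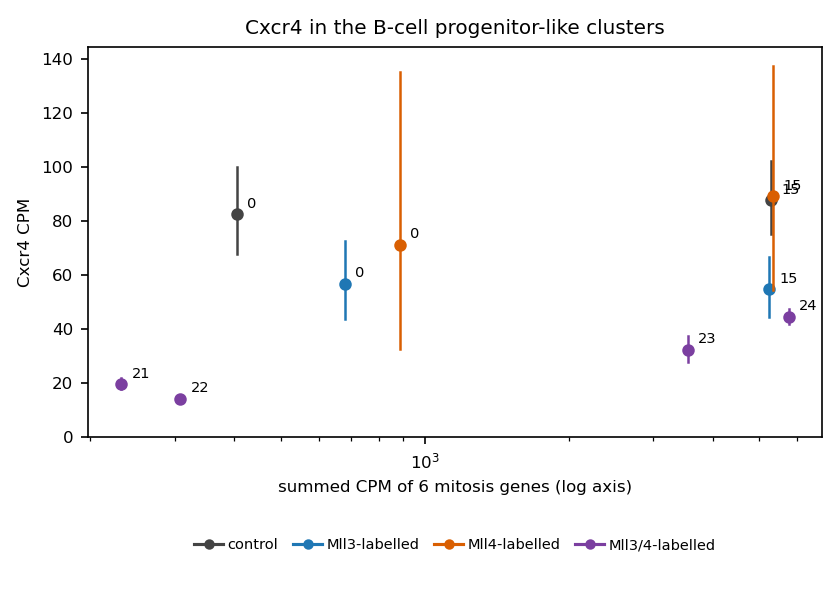
Cxcr4 CPM with exact Poisson 95% intervals against the summed CPM of 6 mitosis genes (log axis) in the B-cell progenitor-like clusters with at least 50 cells of a library. Numbers beside the points name the clusters. The 4 Mll3/4-labelled clusters (14.2 to 44.6 CPM) lie below the 2 control clusters (82.7 and 87.9 CPM).

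Other pathway genes in the same comparison differed in both directions. Over all genes tested, 12.7% were at least 2-fold lower and 11.8% higher. Of 11 tested adhesion and egress genes 6 were at least 2-fold lower and none higher, with a median log2 ratio of -1.44 against -0.04 over all genes. The lowest were Dpp4, a protease that cleaves CXCL12, at 148 CPM in control and 2.003 in the Mll3/4-labelled cells (log2 -6.20, -6.48 to -5.94), and the integrin gene Itgal, at 12.9 and 0.422 CPM (log2 -4.94). Itgb2 (10.4 and 19.3 CPM, log2 0.89) and Itgb1 (61.5 and 102 CPM, log2 0.73) were the highest. Of 21 tested signalling genes 7 were at least 2-fold lower and none higher, led by Rgs18 (28.4 and 2.003 CPM, log2 -3.82) and Rgs2 (92.7 and 10.3 CPM, log2 -3.17). Of 3 other chemokine receptors tested, 1 was lower, 1 higher and Ccrl2 near control (log2 0.06). Cxcr5, the receptor for the follicle chemokine CXCL13, stood at 6.30 and 0.488 CPM (log2 -3.69). Ackr3, an atypical receptor that binds and removes CXCL12, had 0 counts in control and 3044 in the Mll3/4-labelled cells (40.1 CPM), a log2 ratio of 5.41 with control set to 3 counts. It was named after its values were seen.

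Cxcr2 followed granulocyte maturation. In the control library it stood at 7.66 CPM (6.55 to 8.91) in HSC/MPP-like cells, 9.13 (7.48 to 11.0) in granulocyte progenitor-like cells, 27.7 (25.3 to 30.2) in neutrophil precursor-like cells (with Camp, Ngp and Chil3) and 637 (514 to 781) in the 29 late neutrophil-like cells (with Retnlg and Mmp8). The first 2 overlap. In B-cell progenitor-like and erythroid progenitor-like cells it was 0.630 and 0.442 CPM. An unnamed cluster led by Spp1, Ear2 and Lgals3 had 63.6 CPM (57.3 to 70.3).

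In the Mll3-labelled library Cxcr2 was lower in 4 of 5 classes with 20 counts in both libraries. It stood at 16.9 CPM (14.5 to 19.5) in neutrophil precursor-like cells, log2 -0.72 (-0.97 to -0.47), at 3.83 against 10.1 in monocyte/macrophage progenitor-like cells, log2 -1.40 (-2.15 to -0.70), and at 5.86 in granulocyte progenitor-like cells, log2 -0.64. In HSC/MPP-like cells the log2 ratio was -0.40 (-0.78 to -0.03), and 0.29 after thinning to 2000 UMIs. Megakaryocyte-like cells, which have little of it, stood at 2.27 and 2.38 CPM. The hashtags disagreed more here than for Cxcr4. In neutrophil precursor-like cells the 2 control values were 22.5 and 32.3 CPM and the 2 Mll3-labelled values 8.43 and 22.0, so the higher Mll3-labelled value lay next to the lower control value. The 16 late neutrophil-like cells of the Mll3-labelled library had 653 CPM (485 to 861), which overlaps the control interval.

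In the Mll4-labelled library the step to late neutrophils was smaller. Neutrophil precursor-like cells had 24.9 CPM of Cxcr2 (22.1 to 28.0; 27.7 in control, log2 -0.15, -0.37 to 0.06), while the 699 late neutrophil-like cells had 122 CPM (109 to 136) against 637 in the 29 control cells. Late markers stood apart in the same cells: Retnlg was at 1176.5 CPM against 21082, and Mmp8 at 567 against 3631. The cells that share this class thus differ in maturity markers, and the 2 levels are given side by side with no ratio. When both neutrophil classes were joined, Cxcr2 stood at 32.6 CPM in control, 21.3 in the Mll3-labelled and 43.4 in the Mll4-labelled library, Cxcr4 at 94.7, 52.3 and 95.8, and Ccr1 at 41.5, 24.3 and 86.4. Before thinning, Cxcr2 was higher than in control in HSC/MPP-like (14.9 against 7.66, log2 0.96) and monocyte/macrophage progenitor-like cells (20.8 against 10.1, log2 1.04). Trimmed mean scaling moved these ratios by -0.22 and -0.27. After thinning, 3.69% of Mll4-labelled and 3.51% of control monocyte/macrophage progenitor-like cells had a Cxcr2 UMI, so there the rise was hardly seen. In HSC/MPP-like cells the thinned shares were 2.36% (1.26% to 4.01%) and 1.03% (0.579% to 1.70%), with intervals that overlap.

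Ccr1 was, like Cxcr2, highest in the neutrophil classes of control. In control it stood at 1.23 CPM in HSC/MPP-like, 2.22 in granulocyte progenitor-like, 38.6 (35.8 to 41.6) in neutrophil precursor-like and 404 (308 to 521) in late neutrophil-like cells. In neutrophil precursor-like cells the Mll3-labelled library had 22.1 CPM (19.4 to 25.1; log2 -0.80, -1.02 to -0.59) and the Mll4-labelled library 81.0 (75.8 to 86.4; log2 1.07, 0.92 to 1.21). Among cells with little Ccr1, the Mll3-labelled library had 0.441 CPM (7 counts) in HSC/MPP-like and 0.350 (4 counts) in granulocyte progenitor-like cells, both at least 2-fold below control. The hashtags of the 3 libraries did not overlap: 33.6 and 43.0 CPM in control, 20.6 and 22.4 in the Mll3-labelled and 75.7 and 87.2 in the Mll4-labelled library. In this class Ccr1 was thus 2.10-fold above control, while the intervals of the Cxcr4 and Cxcr2 ratios included 0. Control cells of this class were mostly in cluster 7 (1250 of 1287) and Mll4-labelled cells in cluster 16 (1922 of 1957). Cluster 7 had 5 of the class markers among its 10 leading genes and cluster 16 had 0, with 8 detected in each. Cluster 16 was led by Eif2s3y, Ddx3y and Amer2. In the 35 Mll4-labelled cells of cluster 7 Ccr1 stood at 70.3 CPM (38.4 to 118) against 38.6 in the control cells there, with intervals that overlap.

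**Figure D5:**
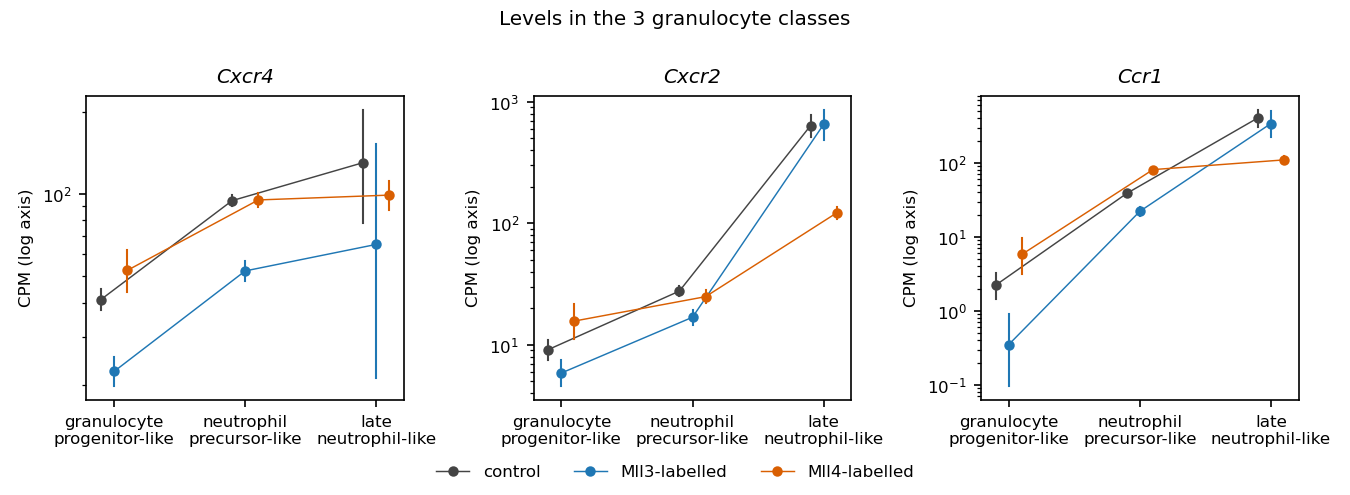
Cxcr4, Cxcr2 and Ccr1 in CPM (log axis) in 3 granulocyte classes of 3 libraries, with exact Poisson 95% intervals, for classes with at least 10 cells. Cxcr2 in the Mll4-labelled library reaches 122 CPM in late neutrophil-like cells against 637 in control, and Mll3-labelled Cxcr4 points lie below the other libraries in each class, with overlapping intervals in late neutrophil-like cells.

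Ccr2 was highest in monocyte, dendritic and T/NK/innate lymphoid classes. In control it stood at 126 CPM (118 to 135) in monocyte/macrophage progenitor-like cells (with F13a1, Csf1r and Irf8). Granulocyte progenitor-like cells had 10.3 (8.57 to 12.3), HSC/MPP-like cells 4.97 (4.08 to 5.998), neutrophil precursor-like cells 1.57 and erythroid progenitor-like cells 0.557, and none of these 5 intervals overlapped its neighbour. Other control classes lay between these on few counts, so the 5 give no full order. They were basophil/mast-like (7.02 CPM, 8 counts), B-cell progenitor-like (2.21, 7 counts) and megakaryocyte-like cells (0.878, 12 counts). The Mll4-labelled library's 107 dendritic cell-like cells (with H2-Aa, Cd74 and H2-Ab1) had 955 CPM (853 to 1070). Of these cells 89 carried hashtag 2 only, at 898 CPM, so the level rests mainly on 1 hashtag. That class had 2 to 8 cells in the other libraries.

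The Mll4-labelled library had more Ccr2 than control in every class with 20 counts in both. HSC/MPP-like cells had 4.97 CPM in control, 3.03 in the Mll3-labelled and 39.0 (32.6 to 46.3) in the Mll4-labelled library, and the last was 7.85-fold above control (log2 2.97, 2.60 to 3.35). Granulocyte progenitor-like cells had 10.3, 4.63 and 86.3 CPM (Mll4-labelled log2 3.06, 2.73 to 3.40). Monocyte/macrophage progenitor-like cells had 126, 83.9 and 385 CPM (log2 1.61, 1.48 to 1.74), and neutrophil precursor-like cells 1.57, 1.01 and 4.54 CPM (log2 1.53, 0.84 to 2.25). The HSC/MPP-like and granulocyte progenitor-like cells, with far less Ccr2 than monocyte progenitors in control, thus showed the larger ratios, and the hashtag values did not overlap with control in 4 of 4 classes. In HSC/MPP-like cells the 2 Mll4-labelled hashtag values themselves lay apart, at 19.05 and 49.97 CPM, against 4.28 and 4.38 in control.

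Within HSC/MPP-like cells both clusters had more Ccr2: cluster 3 had 4.02 CPM in control and 28.1 in the Mll4-labelled library, and cluster 13 had 7.24 and 55.0. The share of HSC/MPP-like cells with a Ccr2 UMI was 5.09% in control and 10.6% in the Mll4-labelled library, or 0.895% (0.477% to 1.53%) and 5.64% (3.86% to 7.91%) after thinning to 2000 UMIs. In erythroid progenitor-like cells, which should lack Ccr2, the shares were 2.94% and 2.91%, thinned 0.0928% and 0.651%, at 0.557 and 2.47 CPM. Median depths before thinning were 14103 and 5628.5 UMIs in HSC/MPP-like and 56643 and 17999 in erythroid progenitor-like cells.

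Markers of other cells were measured in the same HSC/MPP-like cells. The summed level of 8 monocyte markers was 141 CPM in control and 155 in the Mll4-labelled library, with all 8 detected in both. Summed dendritic markers were 113 and 316.5 CPM, with Zbtb46, Clec9a and Batf3 at 0 counts in the Mll4-labelled cells. Basophil/mast markers were at 158 and 596 CPM and neutrophil precursor markers at 370 and 960 CPM. The neutrophil precursor sum was also higher in erythroid progenitor-like cells (181 and 870 CPM). In granulocyte progenitor-like cells, where Ccr2 was 8.36-fold above control, the dendritic sum was 27.9 and 29.7 CPM and the basophil/mast sum 227 and 262 CPM. The part of these in the Ccr2 levels was not tested.

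Of 7442 genes with at least 20 counts in all 4 classes of both libraries, 13 others (0.175%) had a log2 ratio of 1.53 or more in each class. That bar was the smallest of the 4 Ccr2 ratios. They were named after their values were seen. They include the mitochondrial genes mt-Nd3, mt-Nd4l and mt-Atp8, the ribosomal protein genes Rps28 and Rps29, the histone genes Hist1h2ap, Hist1h2br and Hist2h2aa1, and Pttg1. What they share was not tested. In the Mll3-labelled library Ccr2 was lower in 3 of 3 classes with 20 counts in both, at log2 -0.72 in HSC/MPP-like, -1.16 in granulocyte progenitor-like and -0.59 in monocyte/macrophage progenitor-like cells.

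Other pathway genes were described in the monocyte/macrophage progenitor-like cells of the Mll4-labelled library. The desensitisation genes Grk6 (47.5 CPM in control and 107 in the Mll4-labelled library, log2 1.17) and Rgs18 (77.4 and 189, log2 1.29) were 2 of the 3 at least 2-fold higher among 20 tested, where 8.22% of all genes were. Vcam1, an adhesion molecule, stood at 3.78 and 8.98 CPM (log2 1.25), and Itgal at 46.1 and 12.9 (log2 -1.83). Itgal, the alpha chain of LFA-1, was also lower in HSC/MPP-like (26.4 and 12.2 CPM, log2 -1.11) and neutrophil precursor-like cells (37.2 and 18.1, log2 -1.04) of this library. Grk6, which phosphorylates CXCR4 among others, was higher in those too (42.7 and 79.9 CPM, log2 0.90, and 144 and 330 CPM, log2 1.19).

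Basophil/mast-like cells showed the widest spread over the 6 receptors in the Mll4-labelled library. Ccr2 stood at 7.02 CPM in the 111 control cells, 7.10 in the 59 Mll3-labelled cells and 142 (114 to 176) in the 209 Mll4-labelled cells. Ccr1 stood at 14.0, 14.2 and 131 CPM (103 to 163), and Cx3cr1 at 49.1, 56.8 and 293 (251 to 339). The 2 hashtags gave 48.7 and 51.7 CPM of Cx3cr1 in control and 207 and 363 in the Mll4-labelled cells. Cxcr2 stood at 15.8 CPM (18 counts) and 12.4 in the first 2 and at 0 counts in the Mll4-labelled cells, where 3 counts would be 4.96 CPM, so it was at least 3.18-fold lower. The log2 ratios to control were 4.34 (3.299 to 5.599) for Ccr2, 3.22 (2.43 to 4.09) for Ccr1 and 2.58 (2.13 to 3.04) for Cx3cr1. The cells of the class differed in their own markers: the mast cell protease genes Cma1 and Cpa3 stood at 154 and 1377 CPM in control and at 3660 and 8894 in the Mll4-labelled library. The basophil protease genes went apart, with Prss34 at 155 and 149 CPM and Mcpt8 at 742 and 2568. The other class markers were higher too: Fcer1a at 188 and 582 CPM, Ms4a2 at 609 and 875 and Hdc at 155 and 205. A shift in the mix and a change within cells cannot be told apart here.

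Among classes with at least 50 cells Cx3cr1 was highest in the same basophil/mast-like cells, and in the control and Mll3-labelled libraries monocyte/macrophage progenitor-like cells followed at 12.1 CPM (9.59 to 15.1) and 17.0 (13.8 to 20.6). The Mll4-labelled value there was 10.4 (6.98 to 14.96), which overlaps control. Smaller dendritic cell-like classes had 413 CPM (3 counts in 2 control cells, 85.1 to 1206) and 118 CPM (5 counts in 8 Mll3-labelled cells, 38.4 to 276). Erythroid progenitor-like cells had 2.75, 2.06 and 6.002 CPM in the 3 libraries, and these counts came mainly from cluster 5 (led by Car1 and Kcng2), at 6.63, 7.67 and 10.9 CPM, rather than cluster 6 (led by Rhd and Rhag), at 1.51, 0.602 and 4.14. The overlap of Cx3cr1 with other annotated genes applies to these counts, and its part was not tested. Against control, the Mll3-labelled ratio was 0.49 (0.05 to 0.93) in monocyte/macrophage progenitor-like and -0.42 (-0.76 to -0.08) in erythroid progenitor-like cells, where it was 0.11 after thinning. The erythroid values rest on 1 hashtag in each of the 2 libraries: the hashtags gave 2.41 and 2.99 CPM in control, 0.732 and 2.85 in the Mll3-labelled and 2.97 and 12.5 in the Mll4-labelled cells, and both pairs overlap control. In megakaryocyte-like cells Cx3cr1 stood at 1.90 CPM (26 counts) in control and 0.630 (9 counts) in the Mll3-labelled library, log2 -1.59 (-2.87 to -0.46).

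Ccr9 was sparse, with 62, 45, 23 and 14 counts in the control, Mll3-labelled, Mll4-labelled and Mll3/4-labelled libraries. HSC/MPP-like cells had 38 of the 62 control counts (1.73 CPM, 1.23 to 2.38) and 37 of the 45 Mll3-labelled counts (2.33 CPM, 1.64 to 3.22). Few cells carried them: 14 control cells of that class and 4 Mll3-labelled cells had a Ccr9 UMI, so the level rests on single cells. In the Mll3-labelled library 34 of the counts came from 2 cells of cluster 13. The Mll4-labelled HSC/MPP-like cells had 2 counts, both in 1 cell (0.596 CPM; log2 -1.54, -4.64 to 0.41), and that interval includes 0. T/NK/innate lymphoid-like cells had 13.3 CPM (4 counts) in control and 77.5 CPM (7 counts) in the Mll4-labelled library. B-cell progenitor-like cells of the Mll3/4-labelled library had 10 counts in 6830 cells (0.132 CPM, 0.0632 to 0.242) against 3 counts in 468 control cells (0.946 CPM, 0.195 to 2.76), under the 20 counts set for a call. T/NK/innate lymphoid-like cells also had Ccr2, at 43.3, 221 and 377 CPM in 50, 30 and 46 cells of the control, Mll3-labelled and Mll4-labelled libraries.

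Across 27 profiles of a class in a library with at least 100 cells, the receptors differed in pattern, on log2(CPM + 1). The nearest pair was Ccr2 and Cx3cr1 (Pearson r 0.70), then Cxcr2 and Ccr1 (0.63) and Cxcr4 and Ccr1 (0.56), while Cxcr4 had r of 0.05 with Cx3cr1. The genes most like Cxcr4 among 9336 were Sh3kbp1 (0.89), Fam107b (0.89) and Ankrd44 (0.86), and those most like Cxcr2 were C1rl (0.93), Man1c1 (0.89) and Dmxl2 (0.87). Ccr1 was nearest to Lilr4b (0.95), Lilrb4a (0.94) and Cpeb2 (0.91), Ccr2 to Itga1 (0.93), Abca9 (0.91) and Met (0.90), and Cx3cr1 to Slc2a6 (0.83), Mitf (0.83) and Adora3 (0.82). Ccr9 stayed under 20 CPM in these profiles, and its nearest genes were Nr4a1 (0.87), Clec4a1 (0.86) and Itgax (0.86). These are descriptions, since profiles of 1 library share its depth and cell mix.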

How the data were processed

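Single-cell 3′ libraries (10x Genomics, version 3.1 chemistry, per the labels' protocols) of 4 groups were used, 1 library each. The authors deposited UMI counts per gene and cell barcode, without normalization. Cell Ranger 6.1.2 and mm10 are named in the submitters' processing notes. The 15 antibody features were used for hashtags only. Cells with at least 500 genes, 1000 UMIs and at most 10% mitochondrial UMIs were kept, and Scrublet scores removed 5.29% to 8.01% of them as doublets. Libraries shared 9 to 24 cell barcodes in pairs. Clustering used scanpy 1.11.5 with 2000 variable genes without chemokine receptors, 30 principal components, 15 neighbours and Leiden resolution 1, with no integration. Counts were summed per class and library and given as CPM of all gene UMIs. Intervals are exact Poisson for levels, Clopper-Pearson for shares and conditional binomial for ratios, at 95%, and cover counting error only. A gene counted as past 2-fold needed 20 counts in either library. For a ratio, 0 counts were set to 3. Trimmed mean scaling used edgeR 4.0.16. The ratio script was tested on simulated data.

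Named genes were the 6 receptors, the 2 genes with the largest rise and the 2 with the largest fall of each pathway list in a comparison, the 3 most alike in pattern, class markers, and Kmt2c and Kmt2d. Leading genes of clusters, Xist, Ackr3 and the genes that moved like Cxcr4 or Ccr2 in every class were named outside this rule, after their values were seen. The receptors and lists were chosen with earlier results of these data known. Alternatives were other scaling, mean over cells, doublet and mitochondrial limits, thinning, clustering settings and count minimums; hashtag levels, both neutrophil classes joined and immediate early genes were added after seeing the data. A gene that this rule names is not reported here.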

Additional observations from a re-analysis of the deposited data

Results flagged for a closer look

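In the Mll3-labelled library the log2 ratio of Cx3cr1 to control was 0.49 in monocyte/macrophage progenitor-like cells and -0.42 in erythroid progenitor-like cells, opposite directions with intervals that exclude 0. In the Mll4-labelled library the log2 ratio of Cxcr4 was 0.27 in HSC/MPP-like, 0.35 in granulocyte progenitor-like and 0.52 in monocyte/macrophage progenitor-like cells, and -0.70 in basophil/mast-like cells, again in opposite directions. Trimmed mean scaling moved the HSC/MPP-like ratio by -0.22. The basophil/mast-like hashtags gave 53.5 and 67.2 CPM of Cxcr4 in the Mll4-labelled library against 68.2 and 119 in control, so the nearest values almost met. The hashtags of the erythroid progenitor-like cells gave 0.732 and 2.85 CPM of Cx3cr1 in the Mll3-labelled library against 2.41 and 2.99 in control, so that value rests on 1 hashtag. After thinning to 2000 UMIs the erythroid progenitor-like value was 0.11, and with receptor genes allowed in clustering the granulocyte progenitor-like value was -0.07. With 1 library in a group these differences between classes were not tested.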

How the results depend on the processing

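No paired analysis was possible because each group had 1 library, and for the same reason no replicate could be left out. No log2 ratio past 2-fold changed sign under the alternatives that give ratios. Of the ratios under 2-fold whose interval excludes 0, 4 did. After thinning, Mll3-labelled Cxcr2 in HSC/MPP-like cells was 0.29, Cxcr4 in B-cell progenitor-like cells 0.02 and Cx3cr1 in erythroid progenitor-like cells 0.11, and with receptor genes allowed in clustering Mll4-labelled Cxcr4 in granulocyte progenitor-like cells was -0.07. Mll3-labelled Cxcr4 in the other 7 classes stayed below 0 under each of these alternatives. With cells of both hashtags removed, 65 of 66 values moved by less than their counting interval. Values that moved are given here as log2 ratios over all cells in the order Cxcr4, Cxcr2, Ccr1, Ccr2, Ccr9, Cx3cr1, as far as each moved. With the mean over cells they were -0.90, -0.76, -1.15, -0.12 and -1.02 (not Cx3cr1) for the Mll3-labelled library. For the Mll4-labelled library they were 0.55, 1.12, 2.09, 3.16 and, for Cx3cr1, 2.54, and in the Mll3/4-labelled library -0.97 for Cxcr4 and -3.47 for Ccr2. After thinning to 2000 UMIs they were -0.81 (Cxcr4), -0.13 (Ccr2) and 0.088 (Cx3cr1) for the Mll3-labelled library. Thinned Mll4-labelled values were 0.54 (Cxcr4), 0.85 (Cxcr2), 1.90 (Ccr1) and 1.98 (Cx3cr1), and thinned Mll3/4-labelled values -0.9989 (Cxcr4), -3.64 (Cxcr2) and -5.37 (Ccr1). Ccr2 moved to -0.37 with a mitochondrial limit of 20% (Mll3-labelled), 2.77 without doublet removal (Mll4-labelled) and -3.43 with cells of both hashtags removed (Mll3/4-labelled), and Mll4-labelled Cxcr4 to 0.76 with trimmed mean scaling. Within classes of the Mll4-labelled library, Leiden resolution 2 gave 0.080 for Cxcr2 and 1.58 for Ccr1 in neutrophil precursor-like and 1.98 for Cx3cr1 in basophil/mast-like cells, where thinning gave 1.87. Ccr2 in monocyte/macrophage progenitor-like cells moved to 1.34 with trimmed mean scaling and, with receptor genes allowed in clustering, to 1.10 (Mll4-labelled) and -0.33 (Mll3-labelled). Class and receptor pairs at least 2-fold lower in the Mll3-labelled library (6) numbered 1 after thinning, 3 at resolution 2, 2 with another seed, 3 with receptor genes allowed, 10 with no minimum count and 2 with a minimum of 100, and pairs higher (0) numbered 2 at resolution 2 and 1 with receptor genes allowed. For the Mll4-labelled library pairs higher (15) numbered 7 after thinning and 6 with a minimum of 100. Its pairs lower (1) numbered 2 with trimmed mean scaling and with no minimum, and 0 with the mean over cells, no doublet removal, thinning, resolution 2, another seed, receptor genes allowed and a minimum of 100. Pairs lower in the Mll3/4-labelled library (2) numbered 1 after thinning, 4 with no minimum and 1 with a minimum of 100. As the mean of the libraries in place of control, the levels were 72.4 CPM for Cxcr4 and 133 for Cx3cr1 in basophil/mast-like cells, 23.2 for Cxcr2 and 47.2 for Ccr1 in neutrophil precursor-like cells and 198 for Ccr2 in monocyte/macrophage progenitor-like cells. At resolution 2 the last 2 were 25.9 and 147 CPM in control. The cause of these moves was not tested. The Mll4-labelled library was the shallowest, which limits thinned shares and calls on low genes there.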
